A study of Mus musculus with 6 samples.

Results

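Cytosolic ribosomal protein genes encode the proteins of the large and the small subunit of the ribosome that translates nuclear-encoded messenger RNAs. They were taken here as every row of the deposited expression table whose symbol begins with Rpl or Rps followed by a digit, plus Rplp0, Rplp1, Rplp2 and Rpsa, leaving out names with -ps (pseudogenes) and the S6 kinases (Rps6k). This gave 83 genes of the 16665 in the table, 49 named for the large subunit and 34 for the small one. RAW264.7, a mouse macrophage-like leukaemia line, was transfected with a miR-125b mimic (genotype label miR-125b overexpression, 3 libraries) or with a negative control (NC; genotype label miR-125b WT, also transfected, 3 libraries). The labels give no time point, dose or arm of the microRNA, and separate cultures are not stated for the 3 libraries of either group. The p-values therefore reflect how far these libraries scatter, which may be technical. The series title names atherosclerosis and "pyropyosis", probably pyroptosis. The comparison described is that of the mimic with the control.

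Each ribosome holds one copy of nearly every ribosomal protein, and the stalk proteins RPLP1 and RPLP2 are the known exception. The messenger RNAs are short, abundant and begin with a tract of pyrimidines (the 5′ terminal oligopyrimidine or TOP motif), through which mTOR signalling controls their translation as one class. In macrophages, as in other growing cells, they make up a large part of the polyadenylated RNA. Their genes have left many processed pseudogenes in mammalian genomes, so reads can match several places.

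The labels do not name the arm of the mimic, and miR-125b-5p was used for the search. It is shown with its seed (bases 2 to 8) in capitals, because matches to the seed were searched. The mature sequence is that of RefSeq on GRCm38.p6, encoded on chromosome 9 (41581940 to 41581961, plus strand) and on chromosome 16 (77646279 to 77646300, plus strand).
miR-125b-5p: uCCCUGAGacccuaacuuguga
Seed matches were searched in 1 annotated 3′ untranslated region (3′ UTR) per gene, as CTCAGGG (7mer-m8), TCAGGGA (7mer-A1) or both together (8mer), on the transcript strand. Of the 83 ribosomal protein genes 5 held a match (6.02%) and 0 of these were 8mers, against 1842 of 9239 tested genes with a 3′ UTR (19.9%). The 3′ UTRs of ribosomal protein genes were short, with a median of 84 bases against 950. Among the holders were Rpl7l1, Rps15a, Rps3 and Rps7. Shown are the match of the holder with the smallest p (Rps3) and that of a holder that read slightly higher with the mimic (Rps7), with the match in capitals. They lie on the minus strand of GRCm38 chromosome 7 (99477937 to 99477943) and chromosome 12 (28631051 to 28631057), at base 1012 of 1059 and base 59 of 262 of the 3′ UTR.
Rps3: gcctctgcCTCAGGGtattatga
Rps7: gtcaaaatCTCAGGGccatgggt
A match is a run of letters and not a shown site.

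How far a value belongs to one gene was measured by cutting each coding sequence into 50-base windows and asking which of them occur unchanged in another annotated gene, pseudogenes included. The median share was 93.4% for the large subunit and 89.2% for the small one, and 20 and 10 genes were shared in full. Below 50% stood 13 genes, among them Rpl4, Rpl7l1, Rpl8, Rpl22, Rpl32, Rps3, Rps9, Rps15, Rps19bp1, Rps21 and Rps27l. These are the ones whose values depend least on how reads with several matches were assigned. The plainest case of sharing is Rps27 and its intronless retrocopy Rps27rt. Their first 90 coding bases are shown beside those of the paralog Rps27l, a p53 target gene, with every base that differs from Rps27 in capitals.
Rps27: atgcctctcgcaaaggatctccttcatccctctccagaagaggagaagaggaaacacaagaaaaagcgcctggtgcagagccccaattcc
Rps27rt: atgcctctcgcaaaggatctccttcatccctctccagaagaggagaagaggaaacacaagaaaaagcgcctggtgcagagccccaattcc
Rps27l: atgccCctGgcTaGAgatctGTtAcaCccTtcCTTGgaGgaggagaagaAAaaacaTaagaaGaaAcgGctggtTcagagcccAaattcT
Rps27 (GRCm38 chromosome 3, 90212522 to 90213651, minus strand) and Rps27rt (chromosome 9, 114982366 to 114982739, minus strand) differed at 0 of 255 coding bases, so their coding reads cannot be told apart. Rps27l (chromosome 9, 66946086 to 66949516, plus strand) differed from Rps27 at 61 of 255 bases, 24 of them in the stretch shown.

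Recovered depth lay between 14400000 and 16800000 fragments per library, rounded. All 10 macrophage markers examined (Ptprc, Csf1r, Itgam, Adgre1, Cd14, Cd68, Lyz2, Spi1, Fcgr3 and Tyrobp) had a mean of at least 1 FPKM (fragments per kilobase of exon, scaled to the mapped fragments of the library). Their summed level was 7364 to 8890 FPKM in controls and 6578 to 6849 FPKM in the mimics, without overlap, and most of it was the lysozyme gene Lyz2 (6515 to 7838 against 5720 to 5998 FPKM). Its part in the results below was not tested. Of 14 markers of fibroblasts, epithelium, lymphocytes and erythroid cells 4 were in the table, and their summed level was 0 to 1.91 FPKM in controls and 2.37 to 4.30 FPKM with the mimic, in which the haemoglobin gene Hbb-bs held 0 to 1.00 and 1.98 to 3.84 FPKM. The library NC 3 stood apart from NC 1 and NC 2. On log2(FPKM + 1) the median absolute gap between NC 3 and the mean of the other controls was 0.36 over the 10166 genes tested, against 0.085 between NC 1 and NC 2. NC 3 lay closer to the mimic mean than to those controls in 65.7% of all tested genes and in 54 of the 83 ribosomal protein genes (65.1%). Fold changes of the named genes are therefore given with all 6 libraries and without it. NC 3 was singled out by these same values, so p-values and calls of fits without it are a description only. The reason for its position was not tested.

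Ribosomal protein transcripts took up a smaller part of the measured RNA in every mimic library than in every control library. Their share of the summed FPKM was 15.4% in NC 1, 16.5% in NC 2 and 16.0% in NC 3, and it was 13.8%, 14.3% and 14.3% in mimics 1, 2 and 3. The groups did not overlap. The means were 16.0% ± 0.558 and 14.1% ± 0.305 (SD, n = 3), which is a difference of −1.83 percentage points. It was also −1.83 without NC 3, and −1.75 with mitochondrially encoded genes left out of the total, which themselves held 5.77% to 9.87% of it in controls and 8.41% to 8.80% with the mimic. The share is a description: the genes were chosen with results known, and no p is given for a sum over them. In bulk RNA, less transcript per cell, more of other transcripts and a changed make-up of the culture cannot be told apart. The share was not adjusted for transcript length and GC content.

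**Figure D1:**
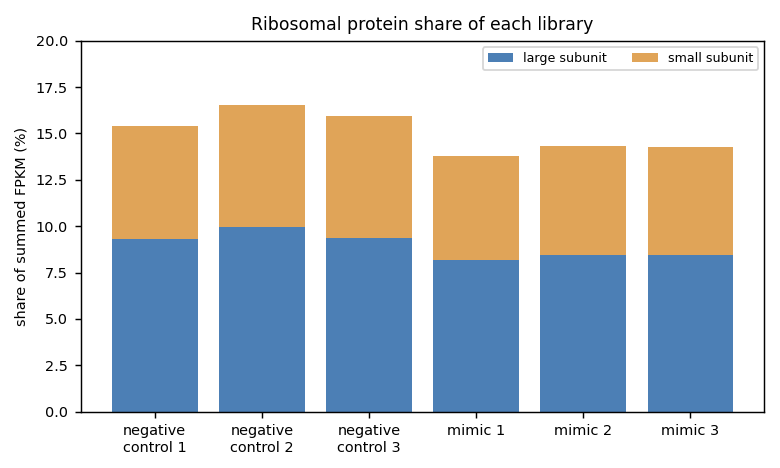
Share of each library's summed FPKM held by ribosomal protein genes (vertical axis, percent), large subunit below and small subunit above, one bar per library. The 3 mimic bars reach 13.8% to 14.3% and the 3 control bars 15.4% to 16.5%.

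Both subunits contributed. The large subunit genes held 9.31%, 9.97% and 9.36% in the controls and 8.20%, 8.42% and 8.43% with the mimic. For the small subunit genes the shares were 6.09%, 6.54% and 6.59% in the controls against 5.58%, 5.91% and 5.84%. The ratio of the large to the small sum was 1.49 ± 0.0611 (SD, n = 3) in controls and 1.45 ± 0.0231 in the mimics, and the groups overlapped, with NC 3 lowest at 1.42. The stalk gene Rplp1 alone made up 12.5% to 16.5% of the ribosomal protein sum. Without Rplp1 the share was 13.7%, 14.8% and 13.7% in the controls and 12.2%, 12.8% and 12.7% with the mimic, again without overlap.

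Although each ribosome needs most of these proteins in equal number (not the stalk proteins RPLP1 and RPLP2), the deposited levels differed widely. Mean FPKM over the 6 libraries ran from 1.24 (Rpl21) to 5919 (Rplp1) in the large subunit, with a median of 327, and from 9.15 (Rps10) to 2581 (Rps3a1) in the small one, with a median of 398. At least 100 FPKM was reached by 38 of 49 and by 29 of 34 genes. Under 50 FPKM lay 12: Rpl21, Rpl29, Rpl36al, Rpl26, Rpl7l1, Rpl35a, Rpl24 and Rpl13a, and Rps10, Rps19bp1, Rps18 and Rps2. FPKM divides by the merged length of all annotated exons. That length was at least 2 times the length of the usual messenger RNA for 26 large and 19 small subunit genes, which lowers their values. For the lowest genes, Rpl21 and Rpl29, it was 1.83 and 1.59 times, and each shares coding windows with 82 other genes. The reason for the low levels was not tested. Across the 83 genes the shared share of the coding sequence and the level had a Spearman's rho of −0.0555, as a description over genes of the same libraries. All 83 passed the filter on low values (mean of at least 1 FPKM), so none of the counts below leaves a gene out.

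**Figure D2:**
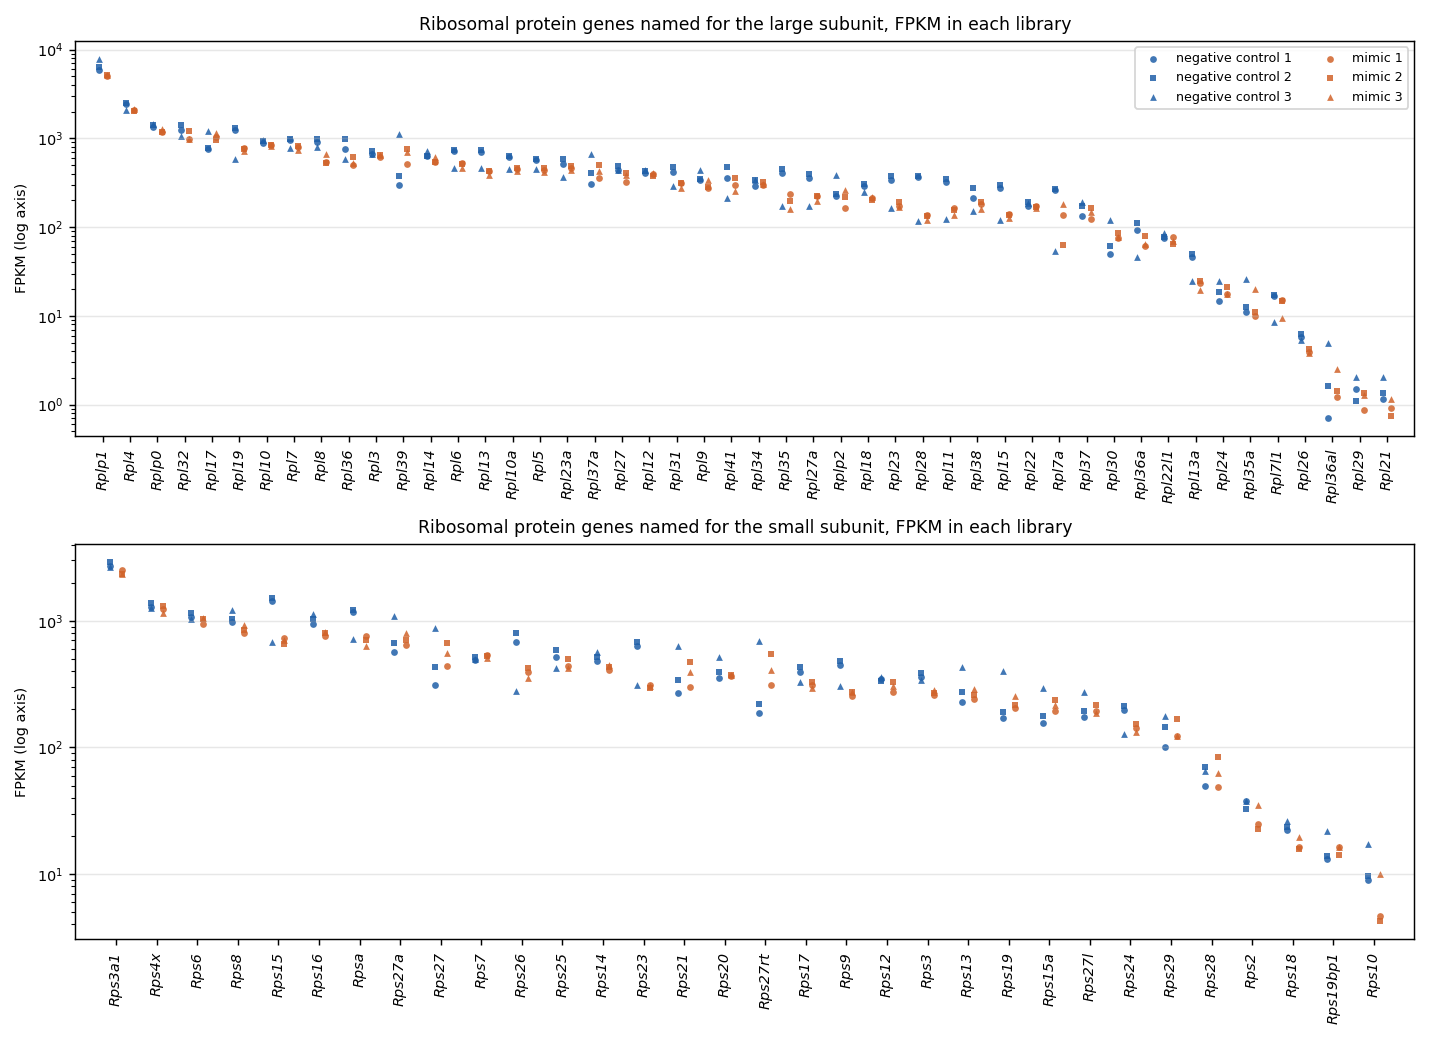
FPKM (log axis) of 80 of the 83 ribosomal protein genes in each of the 6 libraries, large subunit above and small subunit below, ordered by mean level. Blue points are negative controls and orange points mimics, with triangles for library 3 of each group. Levels run from about 1.24 (Rpl21) to 5919 (Rplp1) as means over the 6 libraries.

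Gene by gene, most ribosomal protein genes read lower with the mimic, and no single gene passed the test. Of the 83, 75 had a log2 fold change below 0 and 8 above, while 43.7% of all tested genes were below 0 and 56.3% above. The median was −0.23 over the 49 large subunit genes (46 lower, 3 higher) and −0.20 over the 34 small subunit genes (29 lower, 5 higher), against 0.041 over all 10166 genes tested. By limma on log2(FPKM + 1) with Benjamini-Hochberg adjustment over all genes, 0 of the 83 and 0% of all genes passed 0.05, and limma voom on recovered fragments also passed 0. At an unadjusted p under 0.05, 16 were lower (19.3%; 5.26% of all genes) and 0 higher (7.96% of all genes). In 23 genes (27.7%; 7.49% of all genes) all 3 mimic values lay under all 3 control values, 13 in the large subunit and 10 in the small one. In 0 genes did all 3 lie above (12.6% of all genes). These separations use FPKM as deposited, which was not scaled to the library sum. That sum over all genes was 300019 to 308447 in the controls and 281109 to 284750 in the mimics. Whether groups separated by a small margin stay separate after such scaling was not tested.

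The counts depended on scaling and on transcript length and GC content. Once the trend of the values on length and GC was removed from each library, the medians were −0.10 and −0.074. Then 59 genes were lower (71.1%, against 50.9% of all genes) and 9 had an unadjusted p under 0.05 in that direction (10.8%, against 4.31% of all genes). With quantile normalisation the medians were −0.12 and 0.0031, so the small subunit median lost its sign. In that setting 37 of 49 and 17 of 34 were lower (75.5% and 50%, against 48.3% of all genes). Among the ribosomal protein genes themselves GC content and the fold change had a Spearman's rho of −0.309 over 83 genes, which share libraries and depth. Without these 2 steps the 13 genes with under 50% shared coding sequence were lower in 13 of 13 (median −0.14), and the other 70 in 62 of 70 (median −0.23). With the trend removed 10 of the 13 and 49 of the 70 were lower, and with quantile normalisation 9 and 45.

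**Figure D3:**
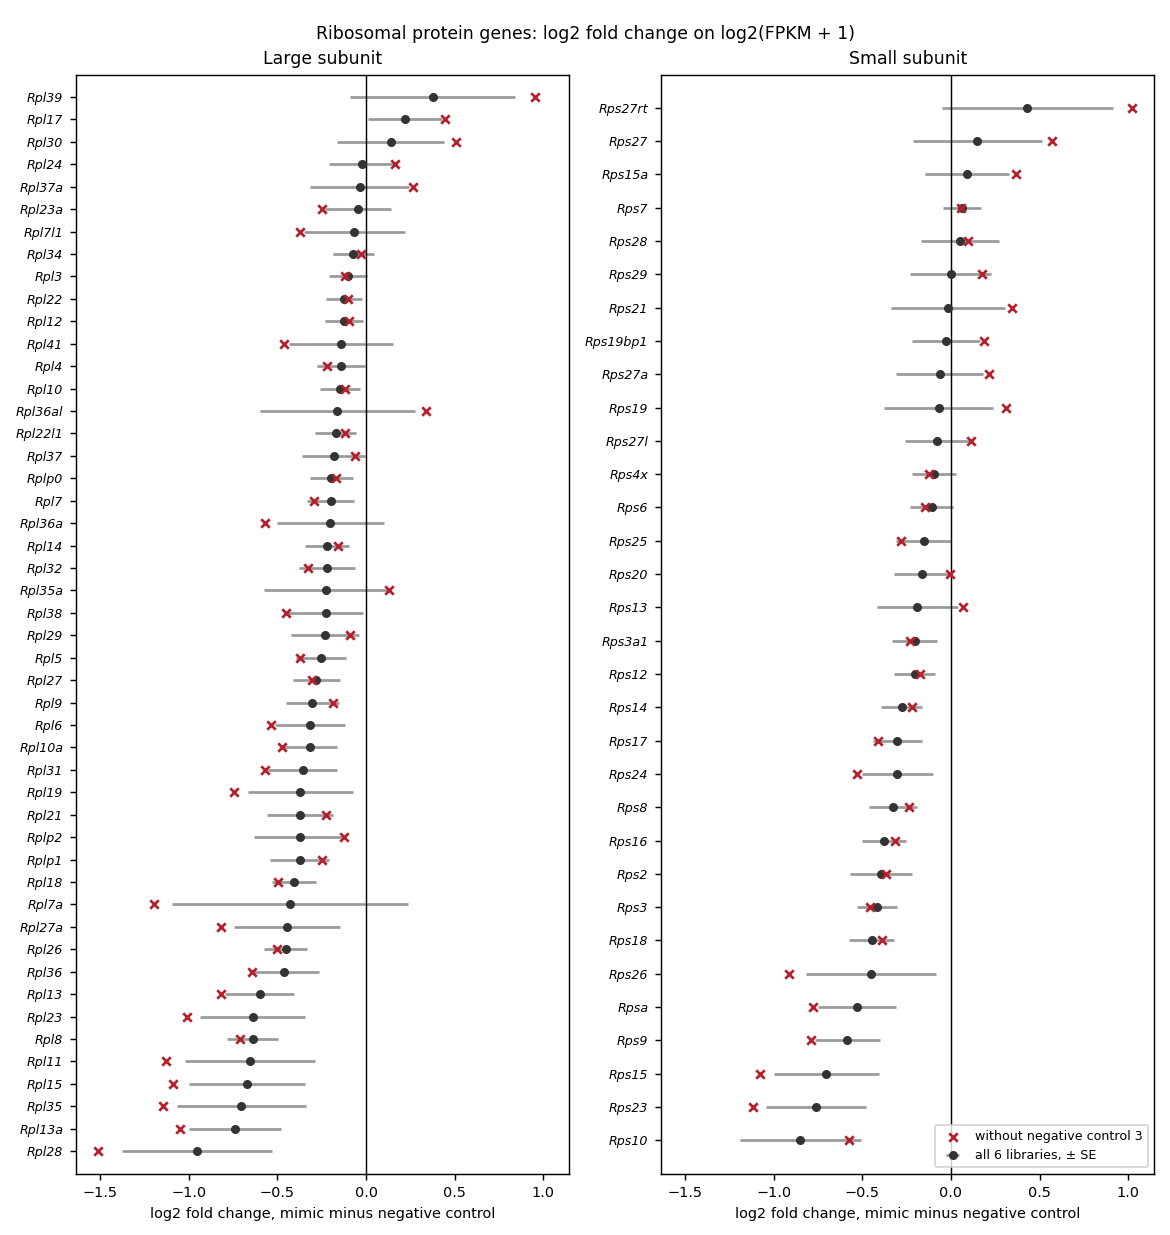
Log2 fold change of 80 of the 83 ribosomal protein genes, mimic minus negative control on log2(FPKM + 1) (horizontal axis), large subunit left and small subunit right. Black points with bars are the limma estimate ± SE over all 6 libraries and red crosses the estimate without negative control 3. Of the black points 45 of 48 and 27 of 32 lie left of 0, while crosses spread wider on both sides.

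Rpl8 and Rps3 combined a clear gap with a coding sequence that is nearly unique, at 8.69% and 8.05% shared. Rpl8 (ENSMUSG00000003970; GRCm38 chromosome 15, 76904078 to 76906314), a protein beside the peptidyl transferase centre, read 905, 978 and 808 FPKM in NC 1, 2 and 3 and 544, 525 and 660 in mimics 1, 2 and 3. Even the highest mimic stayed under the lowest control. Its log2 fold change was −0.64 (SE 0.14, limma adjusted p = 0.332), −0.71 without NC 3 (adjusted p = 0.00999) and −0.35 after removal of the length and GC trend. Rps3 (ENSMUSG00000030744; chromosome 7, 99477896 to 99483738), which lines the entry of the mRNA channel and also acts in DNA repair, read 358, 390 and 343 FPKM in the controls and 260, 271 and 284 with the mimic. All 3 controls, NC 3 included, were above all 3 mimics. Its log2 fold change was −0.42 (SE 0.11, limma adjusted p = 0.332), −0.46 without NC 3 (adjusted p = 0.0111) −0.42 with the trend removed and −0.17 with quantile normalisation, against −0.41 for Rpl8 in that last setting. It carries one of the seed matches shown above.

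The other genes with the smallest p in the large subunit fell into those that NC 3 followed and those it did not. Rpl18 (chromosome 7, 45715457 to 45720836) read 294, 305 and 247 FPKM in the controls and 215, 201 and 220 in the mimics (log2 fold change −0.40, SE 0.12). The groups did not overlap, and the estimate was −0.09 after that removal. Rpl26, known for binding the p53 mRNA, read 5.73, 6.30 and 5.37 FPKM against 3.88, 4.21 and 3.78, also without overlap (−0.45, SE 0.12). Rpl26 is a low value for a ribosomal protein and 87.4% of its coding windows occur elsewhere. Rpl13 read 710, 749 and 463 FPKM in the controls and 425, 426 and 390 with the mimic (−0.60, SE 0.19). NC 3 lay close above the mimics there, far from the other controls. For Rpl13a, which is also known as part of an interferon-responsive translational silencing complex, the values were 46.3, 49.5 and 24.5 FPKM against 23.7, 24.8 and 19.6 (−0.74, SE 0.26). NC 3 lay among the mimics and the groups overlapped. Rpl36 read 763, 974 and 589 FPKM against 506, 622 and 532, likewise with overlap (−0.46, SE 0.20). Without NC 3 limma called all 5 lower, with log2 fold changes of −0.50 for Rpl18 (adjusted p = 0.00802), −0.50 for Rpl26 (0.0188), −0.82 for Rpl13 (0.00499), −1.05 for Rpl13a (0.00524) and −0.64 for Rpl36 (0.0203). After removal of the trend, with all libraries, the others stood at −0.30 for Rpl26, −0.32 for Rpl13, −0.55 for Rpl13a and −0.08 for Rpl36. Quantile normalisation gave −0.19 for Rpl18 and −0.24 for Rpl36.

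In the small subunit, Rps9 (chromosome 7, 3703993 to 3706897), which sits by the mRNA entry channel, read 448, 480 and 303 FPKM in the controls and 257, 274 and 274 in the mimics (a log2 fold change of −0.58, SE 0.18). Rps16 read 944, 1038 and 1129 FPKM against 761, 806 and 821 (−0.38, SE 0.12). In both genes the groups were separate, and NC 3 was the lowest control for Rps9 and the highest for Rps16. Rps18 stood at 22.4, 23.3 and 26.1 FPKM against 16.4, 15.8 and 19.8 (−0.45, SE 0.13), without overlap and at a low level, and 87.8% of its coding windows are shared. Rps23, which shapes the decoding centre and with it translational accuracy, read 635, 686 and 314 FPKM in the controls and 311, 296 and 304 with the mimic (−0.76, SE 0.28). There the groups were separate by a few FPKM, because NC 3 was level with the mimics. Without NC 3 limma called all 4 lower, with log2 fold changes of −0.79 for Rps9 (adjusted p = 0.00499), −0.32 for Rps16 (0.0367), −0.39 for Rps18 (0.0477) and −1.12 for Rps23 (0.0042). With the trend removed and all libraries used, the estimates were −0.35 for Rps9, −0.27 for Rps16, −0.20 for Rps18 and −0.75 for Rps23. Quantile normalisation gave −0.17 for Rps16 and −0.51 for Rps23.

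The stalk, which recruits the translation factors that hydrolyse GTP, comprised the most abundant gene. Rplp1 (chromosome 9, 61913284 to 61914542) read 5860.3, 6353 and 7913 FPKM in the controls and 5105, 5141 and 5144 with the mimic. Every mimic was under every control and the mimics lay close together. Its log2 fold change was −0.38 (SE 0.17, limma adjusted p = 0.388) and −0.06 after removal of the trend. The stalk base Rplp0 read 1332, 1398 and 1449 FPKM against 1171, 1184 and 1293, without overlap (−0.20, SE 0.12). Rplp2 read 222, 238 and 386 FPKM against 163, 217 and 263, with overlap (−0.37, SE 0.26). Without NC 3 none of the 3 was called, and the estimates were −0.25 for Rplp1 (adjusted p = 0.0919), −0.17 for Rplp0 (0.187) and −0.13 for Rplp2 (0.651). With the trend removed they were −0.05 for Rplp0 and −0.15 for Rplp2. With the trend removed and NC 3 left out all 3 turned, to 0.17, 0.08 and 0.21. Quantile normalisation gave −0.19, −0.012 and −0.16 in the same order.

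Of the large subunit proteins, Rpl3, Rpl4 and Rpl10 had small estimates, unlike Rpl8 above. Rpl3, which reaches towards the peptidyl transferase centre, read 675, 716 and 668 FPKM in the controls and 622, 645 and 651 in the mimics (log2 fold change −0.10, SE 0.11; 0.02 with the trend removed and 0.10 with quantile normalisation). Rpl4, which lines the exit tunnel, read 2415, 2495 and 2083 FPKM against 2109, 2049 and 2157 (−0.14, SE 0.14). Rpl10, a late-joining protein needed before the subunits can meet, read 881, 933 and 957 FPKM against 842, 833 and 827 (−0.15, SE 0.11; 0.08 with quantile normalisation). On FPKM as deposited, not scaled to the library sum, Rpl3 and Rpl10 had separate groups by a small margin and Rpl4 did not. Without NC 3 the estimates were −0.12 for Rpl3 (limma adjusted p = 0.264), −0.22 for Rpl4 (0.0884) and −0.12 for Rpl10 (0.26).

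The partners of 5S RNA, Rpl5 and Rpl11, which can bind MDM2 and so stabilise p53, differed in how far NC 3 stood off. Rpl5 read 571, 584 and 447 FPKM in the controls and 445, 468 and 423 in the mimics (log2 fold change −0.25, SE 0.14). Rpl11 read 319, 348 and 124.8 FPKM against 166, 156 and 136 (−0.66, SE 0.37). For Rpl11 NC 3 was the lowest of all 6 libraries, and the control SD was 121 against a mean of 264 FPKM (n = 3). Without NC 3 both fell in the limma fit, with log2 fold changes of −0.38 (adjusted p = 0.0178) and −1.13 (adjusted p = 0.00499). Quantile normalisation gave −0.04 for Rpl5 and −0.46 for Rpl11, and removal of the trend −0.39 and −0.46.

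Small subunit proteins with known other roles gave no call with all 6 libraries either. Rpsa, also a precursor of the laminin receptor, read 1183, 1216 and 712 FPKM in the controls and 759, 708 and 634 in the mimics (log2 fold change −0.53, SE 0.22). NC 3 fell between the mimics. Rps6, the substrate of the S6 kinases, read 1066, 1157 and 1031 FPKM against 943, 1026 and 1049 (−0.11, SE 0.12; 0.01 with the trend removed and 0.04 with quantile normalisation). Rps14, whose loss causes the anaemia of the human 5q deletion, read 482, 520 and 564 FPKM against 412, 428 and 448 (−0.28, SE 0.12; −0.02 with the trend removed and −0.05 with quantile normalisation), without overlap. The abundant Rps3a1 read 2714, 2907 and 2668 FPKM against 2496, 2336 and 2362, also without overlap (−0.20, SE 0.13). Rps4x, the X-linked form of its protein, read 1295, 1394 and 1261 FPKM against 1236, 1308 and 1152, with overlapping groups (−0.10, SE 0.12; −0.02 with the trend removed and 0.12 with quantile normalisation). Without NC 3 limma called Rpsa lower (−0.78, adjusted p = 0.00608). The others were not called, at −0.14 for Rps6 (0.261), −0.22 for Rps14 (0.0817), −0.23 for Rps3a1 (0.0983) and −0.13 for Rps4x (0.336).

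Genes with the largest upward estimates were those in which NC 3 stood far above the other controls. Rpl39 (ENSMUSG00000079641; X chromosome, 37082520 to 37085402), a small protein of the exit tunnel, read 295, 380 and 1123 FPKM in NC 1, 2 and 3 and 519, 764 and 695 with the mimic. The mimics thus lay above NC 1 and 2 and under NC 3. Its log2 fold change was 0.38 (SE 0.46) with all 6 libraries and 0.96 without NC 3 (limma adjusted p = 0.016). Rps27rt read 186, 219 and 692 FPKM against 312, 548 and 406 (0.43, SE 0.48; 1.02 without NC 3, adjusted p = 0.0222). Its twin in sequence, Rps27, read 313, 432 and 880 FPKM against 440, 666 and 554 (0.15, SE 0.36; 0.57 without NC 3, adjusted p = 0.0864). The same order of libraries recurred in Rpl30, at 49.7, 61.3 and 121 FPKM against 74.9, 85.4 and 77.3 (0.14, SE 0.30), and in Rpl17, at 753, 774 and 1219.9 FPKM against 1036, 953 and 1138 (0.22, SE 0.21). Rps15a, at 157, 177 and 296 FPKM against 194, 237 and 217 (0.09, SE 0.24), showed it too, and its estimate turned to −0.11 with the trend removed. Without NC 3 limma called Rpl30 (0.51, adjusted p = 0.0212), Rpl17 (0.45, adjusted p = 0.021) and Rps15a (0.37, adjusted p = 0.0498) higher as well. In all 6 genes the mimics lay above NC 1 and NC 2, and NC 3 was the highest library.

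The paralogs other than Rps27rt gave no call with all 6 libraries or without NC 3. Rpl22l1, a paralog of Rpl22, read 76.2, 77.2 and 85.8 FPKM in the controls and 77.8, 65.1 and 69.6 in the mimics (log2 fold change −0.17, SE 0.12; −0.12 without NC 3). Rps27l read 174, 194 and 275 FPKM against 193, 218 and 188 (−0.08, SE 0.18; 0.13 with quantile normalisation and 0.12 without NC 3). Rpl36al, an intronless copy of Rpl36a, stood at 0.711, 1.63 and 4.97 FPKM against 1.23, 1.42 and 2.55 (−0.16, SE 0.44; 0.34 without NC 3). All 3 had overlapping groups. Of the names that the spelling rule takes in although they are no structural subunits, Rps19bp1, a binding partner of Rps19 that activates the deacetylase SIRT1, had −0.03 (SE 0.19; 0.19 without NC 3) and Rpl7l1, a relative of Rpl7, −0.07 (SE 0.29; −0.37 without NC 3).

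Leaving out NC 3 widened the fold changes in both directions. Without it limma called 32 ribosomal protein genes lower (38.6%; 12.2% of all genes) and 5 higher (6.02%; 11.6% of all genes). The lower calls were 21 in the large and 11 in the small subunit, the higher ones 3 and 2. The SD of the fold changes over the 83 genes was 0.48, against 0.26 with all 6 libraries. Of the 83, 63 were lower in place of 75, while the share of all genes that were lower was 50.9% in place of 43.7%. After removal of the length and GC trend as well, 20 were called lower (3.1% of all genes) and 6 higher (1.52% of all genes), and the medians were −0.12 and 0.0069. These calls set the mimics against 2 controls that were close to each other, and NC 3 did not follow those controls.

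The fit without NC 3 called several genes that did not have the smallest p with all 6 libraries, named here after their values were seen. Rpl28 (chromosome 7, 4792874 to 4795066), a large subunit protein of eukaryotes, read 366 and 381 FPKM in NC 1 and 2, 117 in NC 3 and 138, 133 and 121 with the mimic. NC 3 was thus the lowest of the 6. Its log2 fold change was −0.95 (SE 0.42) with all libraries and −1.51 without NC 3 (limma adjusted p = 0.00357). Rps15 (chromosome 10, 80292453 to 80294114), a head protein of the small subunit with 42.9% shared coding windows, read 1433 and 1507 FPKM in NC 1 and 2, 677 in NC 3 and 728, 655 and 709 with the mimic. Rpl15 read 275 and 298 FPKM, then 119, against 141, 136 and 125.4. For Rpl23 the values were 339 and 381 FPKM, then 166, against 173, 194 and 168. Without NC 3 the log2 fold changes were −1.08 for Rps15 (limma adjusted p = 0.0042), −1.09 for Rpl15 (0.0042) and −1.01 for Rpl23 (0.00499), against −0.70, −0.67 and −0.64 with all libraries. In these 4 genes NC 3 lay within or under the mimics, so that 4 of 6 libraries formed the low set.

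The place of the mimics between NC 3 and the other controls differed from gene to gene. In 29 large and 12 small subunit genes NC 3 and all 3 mimics both lay under NC 1 and NC 2. In 3 large (Rpl17, Rpl30 and Rpl39) and 6 small subunit genes (among them Rps15a, Rps19, Rps19bp1, Rps27 and Rps27rt) they lay above. In 6 large and 5 small subunit genes the mimics lay under NC 1 and NC 2 while NC 3 lay above them, among them Rplp0, Rplp1, Rps14 and Rps16. These patterns were not counted over all tested genes, so they are not shown to be particular to ribosomal protein genes. NC 3 lay under the mean of NC 1 and NC 2 in 6157 of the 10166 genes tested and in 43 of the 83. The gap of NC 3 to the mean of NC 1 and NC 2 passed 1 on the log2 scale in 20 of the 83 genes (24.1%), against 7.55% of all tested genes, and ran from −2.30 (Rpl7a) to 1.77 (Rps27rt). Rpl7a read 264, 268 and 53.1 FPKM in the controls and 136, 62.4 and 181 with the mimic, a wide scatter within the mimics (log2 fold change −0.43, SE 0.67; −1.20 without NC 3, limma adjusted p = 0.0741). Since both comparisons use NC 1 and NC 2, their likeness is given as values and not as a correlation.

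**Figure D4:**
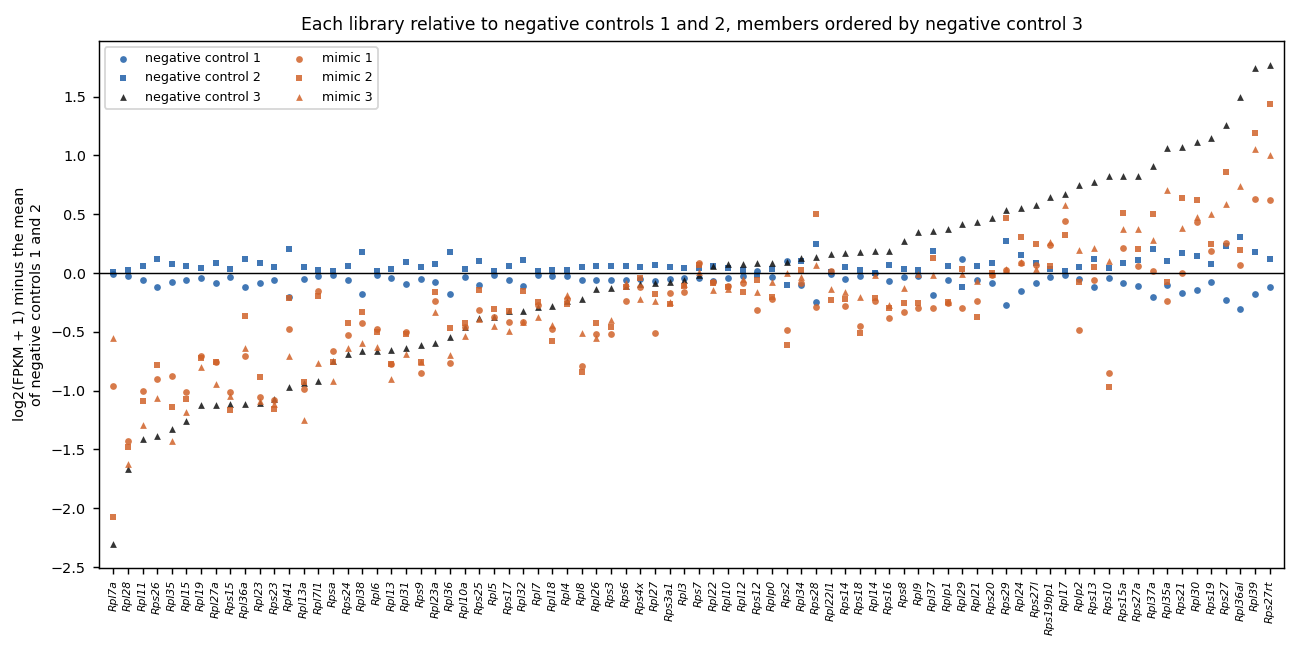
Each library's log2(FPKM + 1) minus the mean of negative controls 1 and 2 (vertical axis) for 80 of the 83 ribosomal protein genes, ordered by negative control 3 (black triangles). Orange points are the mimics. At the left end, down to −2.30 for Rpl7a, and at the right end, up to 1.77 for Rps27rt, the mimics lie on the same side of 0 as negative control 3 for most genes.

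The 13 genes with mostly unique coding sequence included genes of both kinds. Among them Rpl8, Rps3 and Rps9 separated the groups. On FPKM as deposited so did Rpl22, by a small margin (173, 190 and 189 FPKM in the controls against 172, 171 and 164). Rps15 and Rps21 did not, and Rps21 read 267, 338 and 633 FPKM against 301, 469 and 393. Without NC 3, 9 of the 13 were lower and 4 higher (50.9% of all genes were lower), and limma called 5 lower (12.2% of all genes) and 0 higher (11.6% of all genes). After removal of the trend as well it called 2 lower (3.1% of all genes) and 2 higher (1.52% of all genes). Over all 83 genes the shared share and the gap of NC 3 had a Spearman's rho of −0.159, as a description.

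**Figure D5:**
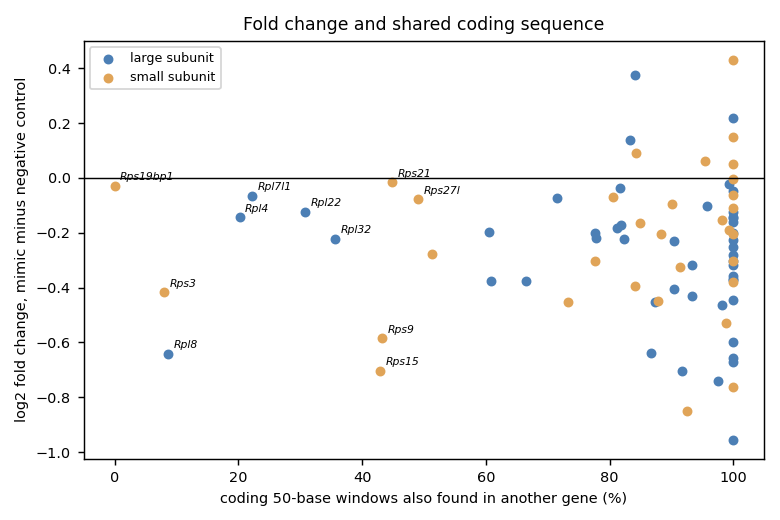
Log2 fold change, mimic minus negative control (vertical axis), against the percent of coding 50-base windows that also occur in another annotated gene (horizontal axis), one point for each of 80 ribosomal protein genes, blue for the large and orange for the small subunit. The 11 labelled genes are under 50% and all lie below 0 in this fit, which used neither trend removal nor quantile normalisation.

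Promoters of ribosomal protein genes were compared as letters only. RefSeq promoter windows on GRCm38.p6 (250 bases before to 50 after the start) were found for 63 of the 83. The ETS and GABP core TTCCGG was present on either strand in 35 of these (55.6%) and in 16.7% of the 27025 genes with a window, the YY1 core AANATGGC in 20.6% and 6.96%, and the SP1 core GGGCGG in 63.5% and 38.2%. The letters TATAAA of a TATA box, at any distance from the start, were in 11.1% and 15.7%. A C followed by at least 4 pyrimidines within 5 bases of the annotated start, the letters of a TOP start, was found in 47.6% and 21.2%. A promoter from either side of 0 in the fold changes is printed for the 120 bases before the start, with any of the 4 cores in capitals: Rpl18, which read lower (chr7:45717951-45718070, plus strand), and Rpl39, which had the largest upward estimate in the large subunit (chrX:37085223-37085342, minus strand).
Rpl18: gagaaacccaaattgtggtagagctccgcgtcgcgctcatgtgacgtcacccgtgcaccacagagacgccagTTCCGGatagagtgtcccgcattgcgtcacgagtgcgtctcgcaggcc
Rpl39: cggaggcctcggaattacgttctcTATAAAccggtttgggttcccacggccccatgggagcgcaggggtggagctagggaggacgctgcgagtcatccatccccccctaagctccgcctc
Rpl18 holds the ETS core and Rpl39 the letters TATAAA in these windows, which shows no binding. In Rpl39 these letters stand early in the printed stretch, far from the start, so they are not shown to be a TATA box. Both stretches lie inside the gene spans given above, downstream of the outermost annotated start.

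Rack1 and Fau, ribosomal protein genes that carry other names, read lower as well. Rack1, a scaffold on the small subunit, read 554, 582 and 535 FPKM in the controls and 479, 480 and 490 with the mimic, without overlap (log2 fold change −0.21, SE 0.11). Fau, which makes a ubiquitin-like protein fused to a small subunit protein, read 711, 785 and 822 FPKM against 576, 660 and 745 (−0.23, SE 0.14). The Fau groups overlapped, and neither gene passed limma's adjusted threshold with all libraries or without NC 3 (−0.23 for Rack1, adjusted p = 0.0526, and −0.19 for Fau, adjusted p = 0.299).

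Related gene groups were counted in the same fit. Of 21 other TOP messenger RNAs, mostly translation factors, 17 were lower and 4 higher (median log2 fold change −0.17), with 0 called and 2 lower at an unadjusted p under 0.05 (9.52%; 5.26% of all genes). Those 2 were the non-coding host transcript Gas5 (29.9, 32.3 and 36.1 FPKM against 25.4, 26.3 and 25.4; −0.34, SE 0.11) and the elongation factor subunit Eef1g (584, 583 and 447 FPKM against 383, 366 and 447; −0.43, SE 0.15). Under quantile normalisation 8 of the 21 were lower and the median was 0.039. Of 77 mitochondrial ribosomal protein genes, which build the separate ribosome of the mitochondrion, 60 were lower and 17 higher (median −0.18), 12 lower at an unadjusted p under 0.05 (15.6%) and 0 called. Of 30 ribosome assembly genes 18 were lower and 12 higher (median −0.062), 2 lower at an unadjusted p under 0.05 (6.67%) and 0 called. Under quantile normalisation 64 of the 77 mitochondrial genes (median −0.23) and 20 of the 30 assembly genes (median −0.099) were lower, against 48.3% of all genes. At an unadjusted limma p under 0.05, 20 of the 77 were lower there (26.0%), against 6 of the 83 cytosolic ones (7.23%) and 6.67% of all genes. Leaving out NC 3, without that scaling, changed the counts as well. Limma then called 7 of the 21 TOP messenger RNAs lower and 1 higher (median −0.24), 26 of the 77 mitochondrial genes lower and 0 higher (median −0.29), and 9 of the 30 assembly genes lower and 1 higher (median −0.24), against 12.2% and 11.6% of all genes. With the trend removed as well the lower calls were 2, 10 and 2 (9.52%, 13.0% and 6.67%, against 3.1% of all genes). The higher ones were 0, 1 and 0 (0%, 1.3% and 0%, against 1.52% of all genes). The assembly factor with the smallest p was Eif6, which keeps the large subunit from joining too early, at 16.8, 18.01 and 17.3 FPKM in the controls and 12.8, 13.6 and 11.4 with the mimic (−0.44, SE 0.11, limma adjusted p = 0.332; −0.44 without NC 3, adjusted p = 0.0237). Without NC 3 Gas5 had −0.27 (adjusted p = 0.0462) and Eef1g −0.55 (adjusted p = 0.0134). Differences between these groups and the ribosomal protein genes were not tested.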

How the data were processed

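Total RNA of RAW264.7 cells (3 mimic and 3 negative control libraries) was sequenced after a SMARTer mRNA-Seq preparation, per the labels' protocols. The deposited table holds FPKM values made by the authors. The tools HISAT2, fastp and DESeq2 and the build mm10 are listed per the submitters' processing notes. Their versions, the counting tool, the annotation and the strand setting were not given in the sources used here. Symbols, exons and transcripts came from GENCODE M21 on GRCm38 (16582 of 16665 identifiers matched), with 1 transcript per gene chosen by CCDS, APPRIS and support level.

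Depth was recovered from low FPKM values, of which 98.5% to 99.0% were whole within 0.1 fragment when multiplied by merged exon length, at 14400000 to 16800000 fragments per library.

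Genes with a mean of at least 1 FPKM (10166) entered a two-sided limma test (version 3.58.1, R 4.3.3). Values were log2(FPKM + 1), the prior variance followed the mean, and p-values were Benjamini-Hochberg adjusted over all genes at a threshold of 0.05. That scale understates changes of low genes. The fit was tested on simulated data. Length and GC trends were removed per library by loess (span 0.5).

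Same-numbered libraries deviated together (correlations 0.287, 0.183 and 0.339 for numbers 1, 2 and 3, over genes), so a replicate block was also fitted. NC 2 with mimic 1 reached 0.308, above the values for numbers 1 and 2, so the likeness is not particular to the number. This pairing comes from the data, and the labels do not state it.

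Members and gene lists were chosen with earlier results of these data known. Named genes are, per subunit, the 6 with the smallest p, the 3 with the highest level and the 3 with the largest upward estimate, all tested paralogs and 12 genes by role; others are said to have been chosen after their values were seen. Some genes that meet this rule or belong to a list are not reported here by name or in the plots, but stay in every count and median. Alternatives covered pseudocount, filter, scaling, weights, block, libraries left out, length and GC trend, and voom. Python 3.11.15 was used for tables and plots.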

Additional observations from a re-analysis of the deposited data

How the results depend on the processing

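With all 6 libraries limma passed 0 genes, and the replicate block, with or without the length and GC trend removed, also passed 0 and changed no call. Leaving out each library in turn gave 0 to 2412 genes, with 0 to 21 large and 0 to 11 small subunit genes called lower and 0 to 3 and 0 to 2 higher, every call in that range coming without NC 3. Medians ranged from −0.307 to −0.197 (large) and from −0.279 to −0.149 (small). Array weights, whose estimation stopped before convergence, gave 5276 of 10166 genes and a large subunit median of −0.359. With these weights 34 large and 19 small subunit genes were called lower and 3 and 2 higher. Leaving out replicate 3 of both groups gave 4377 of 10166 genes, with 28 and 16 lower and 3 and 3 higher. Both totals join the directions, and calls over all genes are not given by direction here. These counts are therefore not shown to be particular to ribosomal protein genes. Removing the length and GC trend, with or without the block, gave a large subunit median of −0.101. Without NC 3 as well it gave 468 genes and medians of −0.12 and 0.00687, with 14 and 6 called lower and 2 and 4 higher. There 17 small subunit genes were below 0 (50%, against 52.3% of all genes). Quantile normalisation gave medians of −0.122 and 0.00308 with 17 small subunit genes below 0 (50%, against 48.3% of all genes). The causes of these changes were not tested.

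Among 592 single-gene results under alternatives for 33 named genes, 482 kept direction and side of the threshold, 80 passed it anew and 30 turned. Log2 fold changes that turned under quantile normalisation were Rpl3 0.10, Rpl10 0.0847, Rps4x 0.12, Rps6 0.0415 and Rps27l 0.13. With array weights it was Rps27l 0.0697. Over single libraries left out, Rpl39 ranged from −0.00568 to 0.956, Rpl30 from −0.122 to 0.51, Rps27 from −0.177 to 0.568 and Rps15a from −0.089 to 0.366, lowest without NC 1 and highest without NC 3. Rps15a was −0.00516 without NC 2. The range was −0.566 to 0.336 for Rpl36al and −0.215 to 0.115 for Rps27l, above 0 without NC 3. Without replicate 3 of both groups they were Rpl36al 0.13 and Rps27l 0.16. With the trend removed, with or without the block, they were Rpl3 0.025, Rps6 0.011 and Rps15a −0.11. With the trend removed and NC 3 left out they were Rplp0 0.078, Rplp1 0.17, Rplp2 0.21, Rpl3 0.0898, Rpl10 0.077, Rpl36al 0.53, Rps6 0.028, Rps14 0.13 and Rps27l 0.096.

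Limits are the 3 libraries per group, the distance of NC 3, shared coding sequence and an unknown strand setting. Depth limits the lowest genes, such as Rpl36al.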
